A study of Sus scrofa with 10 samples.

Results

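The genes described here are 200 named pig genes that were listed at 0 in both cardiomyocyte libraries of animals given deoxycorticosterone acetate (DOCA) and above 0 in all 8 other libraries of the series. They were taken in steps from 35670 gene identifiers. Of these, 34130 lay on numbered chromosomes or X and 17366 of those carried a symbol. Of the named identifiers, 10125 were above 0 in all 5 control libraries and all 3 libraries of DOCA plus JK07, and 1105 of these were at 0 in both DOCA libraries. The 200 with the highest mean control level were kept. The choice used the counts of all 10 libraries, so the level in DOCA, its difference from control and its difference from DOCA plus JK07 are descriptions and carry no test.

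Nuclear RNA of cardiomyocytes sorted from the hearts of wild-type minipigs (Sus scrofa) had been sequenced. Libraries 1 to 5 were controls given phosphate-buffered saline, libraries 6 and 7 came from pigs given DOCA, and libraries 8 to 10 came from pigs given DOCA and JK07. DOCA is a steroid that activates the mineralocorticoid receptor and is used in models of hypertension. JK07 is, by the series title, an ERBB4 agonist, and ERBB4 is a receptor through which neuregulin acts on heart muscle. The sources used here gave no doses, times, ages or heart chamber. Nor do the labels state that each library is a different animal, and p-values then reflect only the variation among these samples, part of which may be technical.

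Nuclear RNA is rich in newly made, partly spliced transcripts, so a long gene contributes reads from its introns as well as its exons. An assembler such as StringTie, which the submitters' processing notes name, reports a gene once its reads reach a minimum depth along the transcript. A gene of moderate level can therefore be listed at 0 in a shallow library while the same level is reported in a deeper one. In such bulk samples, fewer cells of a type and less RNA per cell cannot be told apart.

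Deposited counts summed to 28147230 to 106382357 per library. On numbered chromosomes and X they summed to 8569009 to 13773491 in controls, 8923239 to 12772189 with JK07, and 6793336 and 3238505 in the DOCA libraries. The DOCA libraries listed 8384 and 8650 named genes at 0, against 5138 to 6048 in controls and 5350 to 6115 with JK07. Levels are given as CPM, the count of a gene scaled to the total count on numbered chromosomes and X. Cardiomyocyte markers were present throughout: none of the 10 measured was at 0 in DOCA, and their summed level was 31357 and 31450 CPM there, within the control range of 30292 to 35933 CPM. Single markers differed within that sum, in both directions. MYH6, its largest part, was at 13181 and 14875 CPM in DOCA against 15425 to 19899 CPM in controls. PLN was at 10.9 and 12.0 CPM against 73.2 to 159 CPM, and ACTC1 at 316 and 2148 CPM against 1614 to 2731 CPM. TNNT2 lay above every control in both DOCA libraries, at 3022 and 3777 CPM against 1748 to 2182 CPM. So did RBM20, at 497 and 362 CPM against 160 to 199 CPM. Fibroblast markers summed to 5609 and 28207 CPM in the DOCA libraries and 6139 to 21383 CPM in controls, so the 2 DOCA libraries lay on either side of the control range. The 9 lymphocyte markers measured were at 0 in both DOCA libraries and summed to 7.42 to 21.5 CPM in controls, but 5 of them were at 0 in every control too and only CD247 was above 0 in all 5 controls. The part of these differences in the zeros of the 200 genes was not tested.

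The median level of the 200 genes was 37.8 to 43.5 CPM in the 5 controls, 0 in both DOCA libraries and 30.2 to 32.0 CPM with JK07. Every one of the 3 JK07 medians lay below every control median. As a share of all counts on these chromosomes, the 200 genes held 0.818% to 0.973% in controls and 0.669% to 0.707% with JK07. The 4866 named genes that had at least the lowest of their control levels and were above 0 in both DOCA libraries had medians of 61.9 to 73.5 CPM in controls and 61.4 to 67.1 CPM with JK07. In DOCA those medians were 47.9 and 76.6 CPM.

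**Figure D1:**
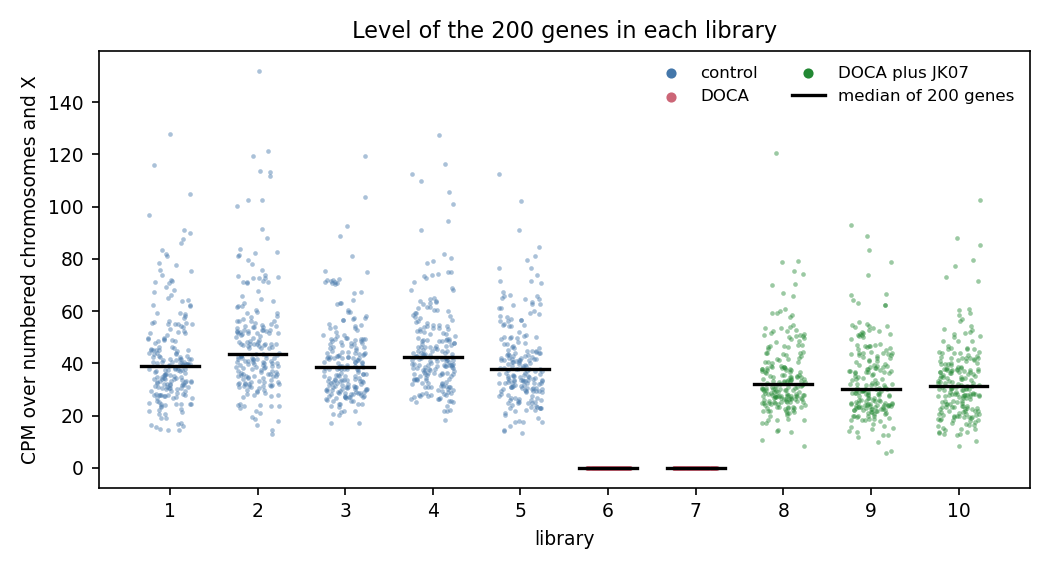
Level of each of the 200 genes (1 point each) in CPM, by library, with the median of the 200 as a black bar. All points of libraries 6 and 7 are at 0 by the choice of genes, and the JK07 medians of 30.2 to 32.0 CPM sit below the control medians of 37.8 to 43.5 CPM.

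Mean control levels of the 200 genes ran from 29.3 to 117 CPM with a median of 39.1. At the lower end, FOXN2, MTMR9 and DHX40 were the last genes kept, each at 29.3 CPM. GTF2A1 at 29.3 CPM and CDKN2AIP and C5orf34 at 29.2 CPM were the first left out. The requirement of 0 also had a near edge: CAPZA1 had 36 counts in library 6 and 0 in library 7, and HIBADH had 31 and 25. Among all 5515 named genes with a control level of at least 29.3 CPM and a count in all 8 other libraries, 398 were at 0 in library 6, 451 were at 0 in library 7, and the 200 genes were the 3.63% at 0 in both.

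The edgeR quasi-likelihood fit with Benjamini-Hochberg adjustment called all 200 genes lower in DOCA than in control, where 19.7% of 17251 genes tested were called lower and 5.73% higher. It called all 200 higher in DOCA plus JK07 than in DOCA, where 14.7% of genes tested were called higher and 2.25% lower. Both counts follow from the choice of genes and nothing is read from them. Fitted fold changes against 0 depend on the prior count of the fit and are not given.

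The 200 genes spanned more of the genome than genes above 0 in both DOCA libraries. Their median span was 66.4 kb (7.15 to 785 kb) and 59 spanned 100 kb or more, against a median of 43.1 kb for the 4866 genes above 0 in both DOCA libraries. Count divided by coverage, times a read length set at 75 bases, gives the length over which a gene's reads were spread. This implied length was 7.42 kb at the median (3.26 to 293 kb) against a median of 5.31 kb. Of the 200 genes, 184 matched a RefSeq gene of assembly Sscrofa11.1 and 183 of those were protein coding, with a median of 4 transcripts per gene against 3. TENM1 (785 kb), FOXP2 (554 kb), KLF12 (474 kb), CACNA1D (473 kb) and CEP112 (423 kb) were the longest. ACOT13 (8.18 kb), ZNF22 (8.85 kb), OMD (11.9 kb) and NRAS (12.4 kb) were among the shortest. On chromosome 15, 19 of 248 named genes of at least the same level were among the 200, or 7.66%, on chromosome 6 the share was 1.17%, and on chromosome 17 it was 0 of 158. Positions below are 1-based and use the Sscrofa11.1 build of the files.

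Because the file lists a gene only above a minimum coverage, the mean control coverage of each gene was scaled to the depth of each DOCA library. Coverage is the mean number of reads over each base of a transcript, a level per length. Expressed as coverage, the lowest TPM that any library listed was 1.00, while 3.96% of values above 0 in the coverage column lay under 1. The 200 genes had a median mean coverage of 4.35 in controls (0.0826 to 13.3), and 162 of them lay between 2 and 8. At an unchanged control CPM their median coverage would have been 2.82 in library 6 and 1.34 in library 7. Of the 200, 13 would have been under a coverage of 1 in library 6 and 51 in library 7, while 149 would have been at or above 1 in both. There were 35 genes at or above 2 in both and 5 at or above 3 in both. The 4866 genes above 0 in both DOCA libraries had scaled medians of 7.21 and 3.44. With coverage taken from TPM, 0 of the 200 genes in library 6 and 7 genes in library 7 would have been under 1. That alternative was chosen after seeing the data.

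From a scaled coverage of 1.5 upward, the share of named genes at 0 was lower in each higher band in both libraries. In library 6, 33.5% of named genes with a scaled coverage of 2 to 3 were at 0, then 19.2% at 3 to 4, 8.78% at 4 to 6, 2.62% at 6 to 10 and 0.410% above 10. In library 7 those shares were 8.98%, 4.33%, 1.68%, 1.22% and 0.364%. The median scaled coverage of the 200 genes lay in a band where 33.5% of named genes were at 0 in library 6 and 30.7% in library 7, the latter for 1 to 1.5. Taking coverage from the TPM values, an alternative chosen after seeing the data, gave medians of 3.89 and 1.85, and the lowest control CPM in place of the mean gave 2.10 and 1.00.

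**Figure D2:**
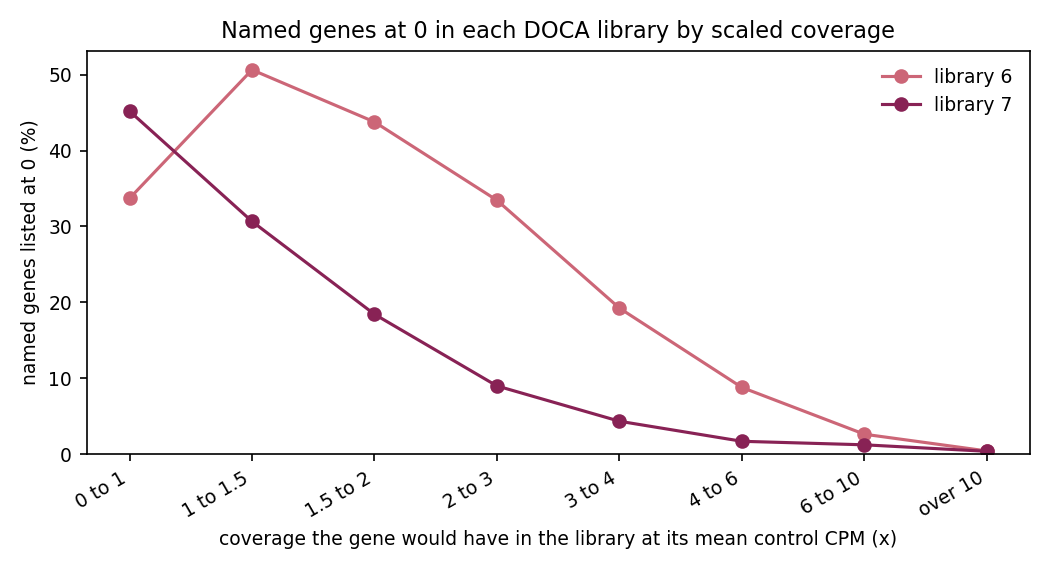
Percent of named genes listed at 0 in library 6 and in library 7 (y axis) by the coverage each gene would have there at its mean control CPM (x axis, bands of coverage). Both lines are near 0 at high coverage, at 0.410% and 0.364% above 10, and library 6 stays above library 7 from 1 upward.

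The 5 genes with a scaled coverage of at least 3 in both DOCA libraries were MMUT, QSER1, ENPEP, ITGB6 and SLF2. MMUT (ENSSSCG00000001732; chromosome 7, 43597246 to 43624671, minus strand) encodes methylmalonyl-CoA mutase, the mitochondrial enzyme that turns methylmalonyl-CoA into succinyl-CoA. Its level was 45.3, 61.5, 63.1, 53.4 and 50.0 CPM in control libraries 1 to 5 and 50.0, 39.5 and 52.0 CPM in JK07 libraries 8 to 10, and the groups overlapped. MMUT had the highest control coverage of the 200 genes, 13.3, which scales to 8.37 and 3.99 in libraries 6 and 7, yet neither listed it. QSER1 (ENSSSCG00000013314; chromosome 2, 27956253 to 28043219, minus strand), a chromatin protein that works with TET enzymes to keep regulatory DNA unmethylated, was at 128, 114, 119, 109.9 and 113 CPM in controls and 78.7, 93.0 and 103 CPM with JK07. All 3 JK07 values of QSER1 lay below the 5 controls. Its scaled coverage was 7.22 and 3.44.

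SLF2 (ENSSSCG00000037592; chromosome 14, 111996783 to 112047885, plus strand) helps bring the SMC5/6 complex to damaged DNA, and was at 105, 119, 104, 113 and 90.9 CPM in controls and 75.2, 88.7 and 88.0 CPM with JK07, again with no overlap between the groups. Its scaled coverage was 6.61 and 3.15. ENPEP, the aminopeptidase that cuts angiotensin II, and ITGB6, an integrin beta subunit, reached scaled coverages of 6.81 and 3.25, and of 6.72 and 3.20. Both were highest in control library 2. ENPEP was at 31.8, 100.4, 38.6, 55.5 and 20.2 CPM in controls 1 to 5 and ITGB6 at 24.6, 152, 71.8, 69.0 and 25.5 CPM, so their lowest controls were far under their means.

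Grouped by known function, with groups set after the values were seen, 182 of the 200 genes fell into 14 roles and 18 were left without one. Chromatin and transcription held 30 genes, mitochondria and metabolism 23, genome maintenance 18, membrane traffic and lysosome 18, ubiquitin and protein turnover 15, and cilium, centrosome and microtubule 14. Signalling, receptors and channels held 14, cell surface and matrix 10, RNA processing and translation 10, and membrane transport 9. The smaller roles were interferon and innate immunity with 6, glycosylation with 6, nuclear pore and nuclear membrane with 5, and chaperones with 4.

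Gene families set by symbol pattern, without regard to level, differed in how often they were at 0 in both DOCA libraries. Over all 10125 named genes above 0 in the 8 other libraries the share was 10.9%. It was 34.1% for interferon response genes (14 of 41), 29.1% for DNA repair and replication (30 of 103), 20.9% for zinc finger factors (58 of 277) and 16.8% for cilium, centrosome and microtubule genes (37 of 220). Chromatin regulators were at 4.93% (7 of 142), kinases and phosphatases at 6.63% (23 of 347), and genes near atrial fibrillation risk loci at 8.33% (3 of 36). The circadian clock list, the nuclear receptors and the atrial fibrillation list gave none of the 200 genes. They held only 15, 19 and 27 genes with a control level of at least 29.3 CPM. Over all named genes of that level 3.63% were among the 200, and nothing is read from the absence. Scaled coverage differed between these families too: its medians in libraries 6 and 7 were 4.33 and 2.06 for interferon genes, 3.67 and 1.75 for DNA repair, 3.39 and 1.61 for zinc finger factors and 9.50 and 4.53 for the atrial fibrillation list. Over all named genes they were 4.21 and 2.01. Shares are descriptions, since the families and the zeros come from a known choice.

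**Figure D3:**
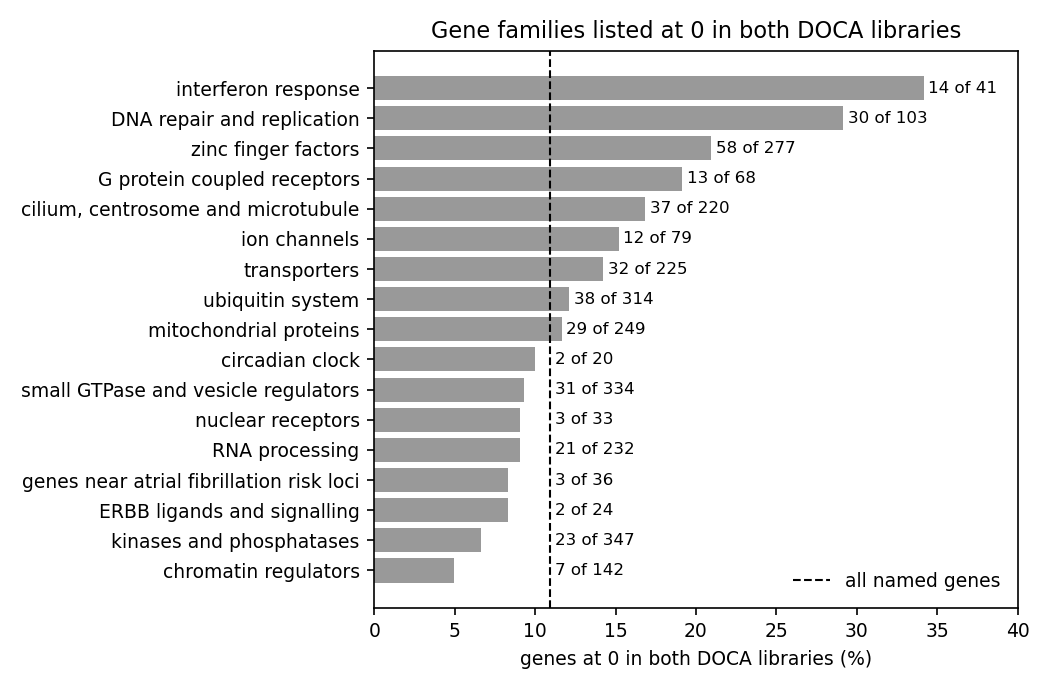
Percent of each gene family at 0 in both DOCA libraries (x axis), among its genes above 0 in the other 8 libraries, with the counts beside each bar. The dashed line marks the 10.9% of all named genes. Interferon response (34.1%) and DNA repair and replication (29.1%) are the longest bars, and chromatin regulators (4.93%) the shortest.

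DNA repair genes were among the most frequent. Cells mend breaks in both DNA strands through the MRE11, RAD50 and NBN complex, which binds the broken ends and starts the signal to ATM. RAD50 (ENSSSCG00000014280; chromosome 2, 134700817 to 134939189, plus strand), its coiled-coil subunit, was at 96.9, 70.6, 72.2, 78.3 and 61.2 CPM in controls and 59.1, 66.0 and 60.5 CPM with JK07, and the groups overlapped. NBN (ENSSSCG00000006127; chromosome 4, 46787691 to 46874603, plus strand), its signalling subunit, was at 71.1, 37.3, 49.7, 74.3 and 61.1 CPM in controls and 38.3, 34.2 and 31.7 CPM with JK07, with 1 JK07 library above the lowest control. MRE11, the nuclease, had too low a control level to be kept (21.9 CPM) and was also at 0 in both DOCA libraries. RAD50 would have had a coverage of 4.44 and 2.12 in libraries 6 and 7, NBN 0.950 and 0.453 and MRE11 1.07 and 0.511. The kinase ATM, which the complex activates, was listed in both, at 47.1 and 148 CPM against 211 CPM in controls.

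Mismatch repair and translesion synthesis genes were listed in part. MSH3, which recognises insertion loops, was at 0 in both DOCA libraries and at 45.04 ± 5.12 CPM (SD, n = 5) in controls. MSH6 was at 17.1 and 0 CPM in libraries 6 and 7, PMS1 at 9.57 and 0 CPM, and MLH3 at 0 and 24.4 CPM, and all 3 were at 57.1 to 57.3 CPM in controls. POLK, a translesion polymerase, was at 43.0 ± 8.25 CPM (SD, n = 5) in controls, while its relative REV1 was at 46.2 and 54.3 CPM in DOCA and 71.2 CPM in controls. The helicase WRN (36.1 ± 6.65 CPM), the Fanconi deubiquitinase USP1 (38.6 ± 5.65 CPM) and ERCC6L2 (63.1 ± 6.27 CPM), a factor of end joining, were also among the 200 (SD, n = 5 each). Their scaled coverages were 2.23 and 1.06, 3.06 and 1.46, and 4.68 and 2.23.

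Replication and telomere factors followed. RFC1 (ENSSSCG00000008788; chromosome 8, 30552400 to 30635867, minus strand), the large subunit of the clamp loader that places PCNA on DNA, was at 91.0, 75.7, 70.8, 72.6 and 84.6 CPM in controls and 50.4, 55.1 and 77.3 CPM with JK07, and library 10 lay within the control range. Among the smaller clamp loader subunits RFC5 was at 0 in both DOCA libraries, RFC2 and RFC3 were each at 0 in 1 of them, and RFC4 was listed in both at 4.27 and 8.34 CPM. POT1, which covers single-stranded telomeric DNA, and STN1 of the CST complex were at 31.0 and 34.0 CPM in controls. TERF2, TERF2IP and TINF2, shelterin genes of 27.6, 24.9 and 64.3 CPM in controls, were listed in both DOCA libraries at 30.03 and 32.1, 34.0 and 51.9, and 45.9 and 79.4 CPM. SMC4, a condensin core subunit, was at 30.2 CPM in controls and 30.03 CPM with JK07. It starts 124 bp from IFT80, another of the 200 genes, which lies on the opposite strand.

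SLF1 and SLF2, which bring the SMC5/6 complex to damaged DNA, were at 0 in both DOCA libraries, as was the SMC5/6 ligase subunit NSMCE2, at 14.8 CPM in controls. RAD18 was at 0 there too, but also in control libraries 1 and 4 and JK07 library 10. SMC6 was at 31.4 and 0 CPM against 79.1 CPM in controls. The 11 of the 200 genes that the DNA repair pattern matched included PARP14 and PARP8, which were matched by symbol alone. They were 11 of the 61 matched genes with a control level of at least 29.3 CPM, against 3.63% of all named genes.

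The interferon and innate immune genes of the 200 included DDX60, EIF2AK2 and IFIH1. IFIH1 (MDA5) and RIGI bind double-stranded RNA in the cytosol, EIF2AK2 (PKR) stops translation when it binds such RNA, and DDX60 acts beside them. DDX60 (ENSSSCG00000009720; chromosome 14, 21083350 to 21163561, plus strand) was at 40.4, 112, 63.1, 127 and 41.5 CPM in controls 1 to 5 and 27.7, 23.1 and 85.3 CPM with JK07. EIF2AK2 (ENSSSCG00000008496; chromosome 3, 103041221 to 103096738, plus strand) was at 73.7, 49.1, 59.5, 105 and 70.7 CPM in controls and 28.1, 38.6 and 51.6 CPM with JK07. IFIH1 was at 39.9, 48.2, 46.5, 74.8 and 27.7 CPM and 18.2, 21.9 and 43.3 CPM. Control library 4 was the highest control for DDX60, EIF2AK2 and IFIH1, and library 10 the highest with JK07, and for each gene the groups overlapped.

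PARP14, an ADP-ribosyltransferase of the interferon response, was at 43.5, 28.0, 52.7, 73.5 and 29.6 CPM in controls and 14.6, 12.8 and 34.2 CPM with JK07. SAMD9, an interferon-induced antiviral factor, was at 45.4, 20.9, 42.8, 46.3 and 35.1 CPM and 20.4, 23.4 and 22.0 CPM. These 2 genes also had their highest control value in library 4. RIGI and DHX58 had control levels of 22.0 and 9.94 CPM and were at 0 in both DOCA libraries. Other genes that recognise viral RNA were listed there: OAS2 at 10.2 and 47.6 CPM, OAS1 at 1.91 and 7.10 CPM and ZC3HAV1 at 12.1 and 32.7 CPM. Scaled coverages were 5.19 and 2.48 for DDX60, 4.11 and 1.96 for EIF2AK2, 3.78 and 1.80 for IFIH1, 2.25 and 1.07 for RIGI and 1.87 and 0.893 for DHX58.

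Other interferon genes were listed in DOCA. HERC6 was at 24.4 and 52.8 CPM against 108 CPM in controls, and GBP1 at 23.4 and 58.4 CPM against 77.7 CPM. IRF3 was at 87.0 and 166 CPM against 60.2 CPM. With JK07, 36 of the 41 interferon genes above 0 in the 8 libraries had a log2 change from control below 0 and their median was -0.36. Over all named genes tested, 52.7% were below 0. Of the 41 genes, 3 (7.32%) lay wholly below control, against 8.11% of named genes. Macrophage and monocyte markers had a median of -0.67 with 8 of 9 below 0, and endothelial markers -0.26 with 9 of 9. On the TPM scale with a pseudocount of 1 these medians were -0.08 for interferon genes, -0.23 for macrophage and -0.04 for endothelial markers. All genes stood at 0.11 there, and relative to all genes the 3 medians were -0.19, -0.34 and -0.15. Macrophage markers summed to 294 to 1115 CPM in controls and 194 to 518 CPM with JK07. Their part in the interferon values was not tested.

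Nuclear pore genes showed which subunits of a complex were listed and which were not. The pore is built from an outer Y complex, an inner ring and peripheral proteins. NUP107 and NUP133 of the Y complex were at 0 in both DOCA libraries, at 27.9, 32.6, 36.4, 39.4 and 42.7 CPM and 32.3, 41.6, 31.8, 21.9 and 54.9 CPM in controls 1 to 5. NUP205 (ENSSSCG00000030386; chromosome 18, 13674312 to 13811976, minus strand) and NUP155 of the inner ring were at 69.1, 63.2, 53.4, 58.7 and 76.3 CPM and 40.7, 40.4, 35.7, 46.1 and 47.5 CPM in controls. With JK07 they were at 41.7, 50.7 and 42.9 CPM and 27.4, 32.7 and 34.1 CPM, below all 5 controls in both cases.

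Their partners differed. NUP98 was at 129 and 172 CPM in DOCA against 200.1 ± 16.7 CPM (SD, n = 5) in controls, and SEH1L at 53.0 and 97.9 CPM against 78.2 ± 24.4 CPM (SD, n = 5). NUP188, the inner ring relative of NUP205, was at 294 and 151 CPM against 80.9 ± 16.0 CPM (SD, n = 5), above every control in both libraries. NUP160 and NUP93 were listed in library 6 only, at 13.7 and 8.54 CPM. NUP35, at 13.2 CPM in controls, was at 0 in both DOCA libraries, with a scaled coverage of 1.07 and 0.510. NUP37 and NUP43 were at 0 there too, but also in some of the controls. Among the 200 genes, scaled coverages were 3.49 and 1.66 for NUP107, 2.48 and 1.18 for NUP133, 3.73 and 1.78 for NUP205 and 3.74 and 1.78 for NUP155.

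**Figure D4:**
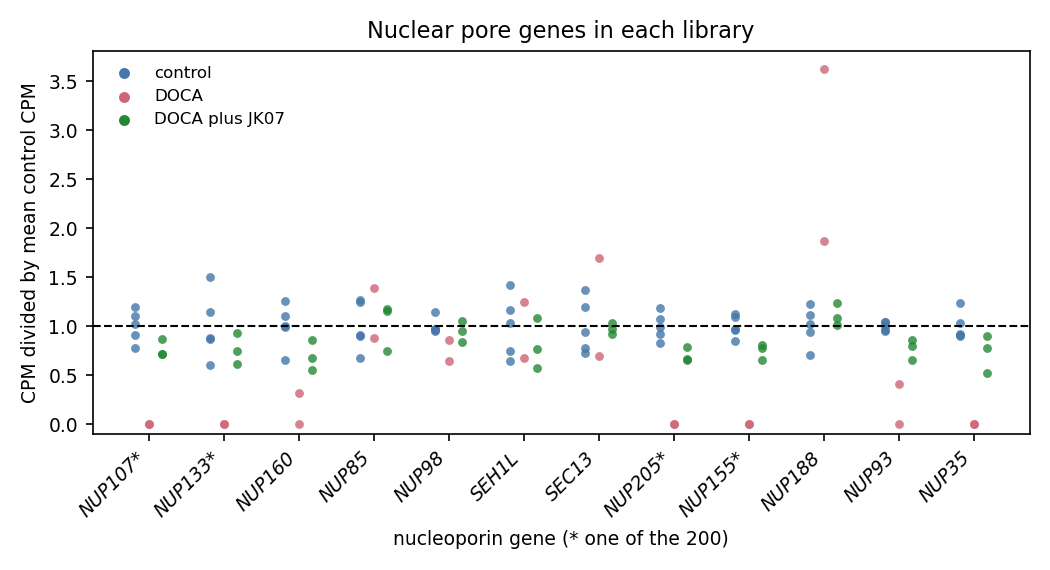
CPM of nuclear pore genes of at least 10 CPM in controls, divided by each gene's mean control CPM (y axis, linear), with 1 point per library. NUP107, NUP133, NUP205 and NUP155, marked by asterisks, are at 0 in both DOCA libraries, as is NUP35, and NUP188 is above all of its controls in both.

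Chromatin and transcription was the largest role. TET1 (ENSSSCG00000010241; chromosome 14, 71675671 to 71815618, plus strand), which oxidises methylated cytosine, was at 82.0, 79.4, 92.7, 71.1 and 62.9 CPM in controls and 50.8, 66.4 and 59.4 CPM with JK07, where library 9 reached into the control range. Its relative TET3 was listed in DOCA at 43.7 and 84.3 CPM against 53.1 CPM in controls. MEIS1, a homeobox factor that restrains cardiomyocyte division, was at 62.3, 65.8, 62.6, 81.8 and 35.0 CPM in controls and 44.2, 51.3 and 54.5 CPM with JK07, and the groups overlapped.

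SMARCAD1, a chromatin remodeller, had a scaled coverage of 5.42 and 2.58 and a control level of 56.5 ± 7.56 CPM (SD, n = 5). The histone deacetylase HDAC2 (30.1 ± 4.50 CPM), the Polycomb ligase RNF2 (40.5 ± 11.13 CPM), the histone gene activator NPAT (33.7 ± 7.01 CPM) and the super elongation component MLLT3 (35.8 ± 4.03 CPM) had lower levels (SD, n = 5 each). Of the 30 genes, 26 had a log2 change with JK07 below 0, from -0.52 for STOX1 to 0.28 for ZNF333. Scaled coverage of the role was 2.84 and 1.36 at the median in libraries 6 and 7. The zinc finger genes ZBTB37, ZNF333, ZNF260, ZNF484, ZNF84 and ZNF22 lay between 30.02 and 57.1 CPM in controls, and KLF12, a repressor that spans 474 kb, at 52.7 CPM.

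Mitochondrial and metabolic genes included linked steps of amino acid breakdown. Valine, isoleucine and some fatty acids are degraded to propionyl-CoA and then, through MMUT and its cobalamin cofactor, to succinyl-CoA. ACADSB (ENSSSCG00000010723; chromosome 14, 132563309 to 132626841, plus strand), the dehydrogenase of short branched acyl-CoA, was at 44.6, 41.0, 38.8, 38.2 and 32.6 CPM in controls and 23.1, 18.2 and 29.8 CPM with JK07, with no overlap. ALDH6A1, methylmalonate semialdehyde dehydrogenase, was at 41.5, 71.0, 60.5, 61.7 and 23.2 CPM and 26.5, 35.7 and 42.0 CPM, and its range with JK07 lay within that of the controls. Of 17 genes of this pathway looked up after the values were seen, 5 were at 0 in both DOCA libraries (ACADSB, ALDH6A1, MMUT, DBT and MCEE) and 10 were above 0 in both. MCEE was also at 0 in control library 5 and JK07 libraries 9 and 10. Of the genes above 0 in both, BCAT2 was at 39.3 and 42.0 CPM against 57.6 CPM in controls and HADH at 52.4 and 84.9 CPM against 112 CPM.

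MMAA and MMADHC, which deliver cobalamin to MMUT and sort it between compartments, were at 39.5 and 32.5 CPM in controls. With MMAB and LMBRD1, 4 of 7 cobalamin genes, also looked up after the values were seen, were at 0 in both DOCA libraries. Over all named genes that share was 10.9%. Scaled coverages were 2.55 and 1.22 for MMAA, 3.43 and 1.64 for MMADHC, 1.62 and 0.774 for MMAB and 2.15 and 1.03 for LMBRD1. MTR, the methionine synthase, was listed at 91.1 and 275 CPM against 393 CPM in controls. PDK3, a kinase that turns pyruvate dehydrogenase off, and PDP1, a phosphatase that turns it on, were at 0 in both, at 40.1, 39.4, 33.5, 61.7 and 38.4 CPM and 42.4, 38.4, 27.2, 34.0 and 39.6 CPM in controls 1 to 5. PDK4, the fasting-induced kinase, was listed at 635 and 142 CPM against 241 ± 127 CPM (SD, n = 5).

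GPAM, which starts triglyceride synthesis and is an adipocyte marker as well, was at 78.3, 46.0, 71.0, 65.0 and 58.3 CPM in controls and 121, 46.7 and 42.1 CPM with JK07. Library 8 lay above all 5 controls, library 9 at their lower end and library 10 below them. Of the 8 adipocyte markers measured, 5 were at 0 in both DOCA libraries, but ADIPOQ and LEP were at 0 in every library. SCD was the only one beside GPAM that was at 0 there and above 0 in all 5 controls. PNPLA2 went the other way, at 95.2 and 88.6 CPM in DOCA against 48.1 to 66.2 CPM in controls. ACOT13, COX15, SYNJ2BP and TMLHE, which serve acyl-CoA hydrolysis, haem A assembly, the outer membrane and carnitine synthesis, were each lower in all 3 JK07 libraries than in all 5 controls. Their log2 changes were -0.57, -0.52, -0.62 and -0.31. Of the 23 genes of the role, 6 lay wholly below control, against 21.5% of the 200 genes and 8.11% of named genes.

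Signalling genes included transducers of growth factors. NRAS, a RAS GTPase downstream of receptor tyrosine kinases, was at 43.6, 35.3, 25.8, 28.1 and 39.5 CPM in controls and 33.1, 31.0 and 14.7 CPM with JK07, and the groups overlapped. HRAS, RRAS and MRAS were listed in DOCA, MRAS at 31.6 and 43.5 CPM against 52.7 CPM in controls. PIK3CB, a catalytic subunit of PI3-kinase, was at 39.99 ± 9.06 CPM (SD, n = 5) in controls. DOCK10, an activator of CDC42, was at 67.9, 24.6, 44.2, 73.6 and 56.7 CPM in controls and 28.7, 37.4 and 16.1 CPM with JK07, and the groups overlapped through control library 2. PIK3CA was listed in library 7 only at 31.2 CPM, against 41.3 CPM in controls.

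SMAD2, which carries TGF-beta signals to the nucleus, was at 67.5, 53.7, 75.1, 79.2 and 54.7 CPM in controls and 51.0, 51.4 and 37.8 CPM with JK07. BMPR1A, a type I receptor for bone morphogenetic proteins, was at 70.8, 61.8, 48.1, 68.0 and 64.8 CPM and 58.3, 54.8 and 39.7 CPM, and overlapped where SMAD2 did not. SMAD3, the other receptor-activated SMAD of TGF-beta, was listed in DOCA at 115 and 130.0 CPM against 111 ± 21.3 CPM (SD, n = 5), and BMPR2 at 134 and 248 CPM against 134 ± 18.5 CPM (SD, n = 5). Of 12 SMAD and BMP receptor genes, 9 were above 0 in both DOCA libraries. SMAD2 had a scaled coverage of 3.59 and 1.71 and BMPR1A of 4.97 and 2.37.

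Receptors and channels of the heart were few. CACNA1D, an L-type calcium channel subunit prominent in atrial and nodal cells, was at 15.6, 77.9, 38.3, 21.9 and 13.3 CPM in controls, with library 2 far above the rest, and 13.6, 9.78 and 23.6 CPM with JK07. CACNA1C, the main ventricular and atrial subunit, was at 418 and 144 CPM in DOCA against 166 ± 41.4 CPM (SD, n = 5).

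CALCRL and EMCN are endothelial genes, and both belong to the endothelial marker list. CALCRL, the receptor for adrenomedullin and CGRP, was at 71.9, 35.1, 44.7, 54.6 and 71.6 CPM in controls and 25.8, 40.3 and 26.8 CPM with JK07. EMCN was at 54.9, 14.5, 28.6, 36.1 and 59.0 CPM and 17.2, 29.6 and 22.9 CPM. Of the 9 endothelial markers measured, 3 were at 0 in both DOCA libraries, CALCRL, EMCN and ADGRL4, and the list summed to 572 and 1536 CPM there, against 799 to 1917 CPM in controls and 725 to 1165 CPM with JK07. MYH1, a fast skeletal myosin with near-identical copies beside it, was at 14.5, 32.2, 40.1, 26.7 and 33.1 CPM in controls and 52.5, 42.7 and 25.8 CPM with JK07, and how reads were split between the copies is uncertain.

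The cilium and centrosome genes had the smallest median log2 change with JK07 of any role, -0.11 on the count scale with 11 of 14 below 0, and 0.08 on the TPM scale with a pseudocount of 1, where all genes stood at 0.11. Relative to all genes it was -0.03 on that scale, with 9 of 14 below the all-gene median. The whole cilium, centrosome and microtubule list, set by symbol, had a median of 0.05 on the count scale, with 97 of 220 below 0. CEP290, a gatekeeper of the ciliary transition zone, was at 64.9, 91.2, 70.9, 60.3 and 54.4 CPM in controls and 54.7, 64.4 and 58.6 CPM with JK07. CNTLN, which ties centrioles together, was at 59.2, 73.7, 67.2, 57.6 and 62.2 CPM and 53.4, 47.1 and 50.4 CPM, without overlap. CCDC39, needed to assemble dynein arms, was at 30.6 CPM in controls and 18.4 CPM with JK07, and CEP112 at 44.96 and 50.4 CPM. CCDC14 had the highest scaled coverage of the role, 6.14 and 2.93, and RPGRIP1L, IFT80, CEP162 and PIBF1 lay at 38.8, 30.8, 47.5 and 37.4 CPM in controls.

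Among ubiquitin system genes, NEDD4, a ligase that removes membrane proteins, was at 87.5, 36.1, 75.2, 74.8 and 76.3 CPM in controls and 60.7, 62.4 and 48.5 CPM with JK07. Its control values were between 74.8 and 87.5 CPM except in library 2. KLHL28 was at 61.9 ± 9.35 CPM, FBXO30 at 57.7 ± 12.3 CPM and USP37 at 54.3 ± 14.0 CPM in controls (SD, n = 5 each). AREL1 and DZIP3 were among the 17 genes whose mean with JK07 was above control, at 53.9 against 44.8 CPM and 41.6 against 34.3 CPM.

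Transporters stood at the lower end of scaled coverage. ATP7A, which pumps copper, was at 45.2, 29.8, 37.9, 52.4 and 33.5 CPM in controls and 37.6, 36.6 and 30.03 CPM with JK07. ABCA5, SLC33A1 and SLC39A10, which carry lipids, acetyl-CoA and zinc, were at 55.3 ± 17.97, 40.2 ± 8.54 and 38.6 ± 14.9 CPM in controls (SD, n = 5 each). The mitochondrial carrier SLC25A40 was at 46.2 ± 5.90 CPM (SD, n = 5).

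Membrane traffic genes had the lowest scaled coverage in library 7 after membrane transport, with medians of 1.04 and 1.00. TMEM106B, a lysosomal membrane protein, was at 81.2, 121, 71.8, 61.3 and 65.2 CPM in controls and 59.9, 54.4 and 42.4 CPM with JK07. HPS5, of the complex that forms lysosome-related organelles, was at 71.7, 72.9, 71.4, 80.3 and 71.5 CPM and 74.1, 63.2 and 60.6 CPM, and its controls lay between 71.4 and 80.3 CPM. VPS50 and VPS26C, of endosomal retrieval complexes, had means of 42.2 and 41.1 CPM with JK07 and 41.7 and 40.01 CPM in controls. SCAMP1, TBC1D8B, GOSR1 and GOLM2 were each lower in all 3 JK07 libraries than in all 5 controls. Of the 18 genes of the role, 6 were, against 21.5% of the 200 genes and 8.11% of named genes. SYTL2 was at 32.1 ± 7.96 CPM (SD, n = 5) in controls.

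Among the 10 RNA processing and translation genes, RBM41 was at 43.4 ± 9.10 CPM and CNOT6, a deadenylase, at 39.5 ± 6.99 CPM in controls (SD, n = 5 each). METTL14, of the enzyme that writes m6A on RNA, was at 24.5, 32.7, 29.3, 29.5 and 31.7 CPM in controls and 21.9, 23.9 and 19.5 CPM with JK07. METTL3, its catalytic partner, was listed in DOCA at 29.1 and 39.2 CPM against 41.4 CPM in controls.

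DOCA plus JK07 against control is the comparison that the choice of genes used least, though genes were ranked by their control level and had to be above 0 with JK07. The edgeR quasi-likelihood test with Benjamini-Hochberg adjustment called 0 of the 200 genes in either direction, where 0% of 17251 genes were called, and the lowest adjusted p was 0.977. At an unadjusted p under 0.05 it found 19 of the 200 genes lower, where 1.98% of all genes tested were lower, and 0 higher, where 2.68% were. DESeq2 called 2 of the 200 lower, RECK and STXBP6, and 0 higher, where 0.383% and 0.301% of the 16963 genes with an adjusted p were called.

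The median log2 change of the 200 genes from control was -0.25, and 170 of 200 were below 0, against 50.1% of all genes tested. For the 4866 genes above 0 in both DOCA libraries the median was 0.01. The ratio of mean CPM with JK07 to mean control CPM was 0.766 at the median. It was below 1 for 183 genes, under 0.5 for 5 and above 1 for 17. In 43 of the 200 genes, or 21.5%, all 3 JK07 values lay below all 5 controls, where 8.11% of the 10125 named genes and 8.38% of the 4866 did. No gene of the 200 lay wholly above control, where 1.53% of the 10125 and 1.93% of the 4866 did.

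The difference was smaller without the ranking by control level. Over all 1088 tested genes of the 1105 the median was -0.19, and 137 of 1105 (12.4%) lay wholly below control. Choosing the 200 by their mean with JK07 instead, an alternative added after seeing the data, gave a median of -0.15 and 28 genes wholly below (14.0%). Without control library 2 the median of the 200 was -0.16. On the TPM scale with limma and a pseudocount of 1 it was -0.02, with 112 of 200 below 0, while the median of all genes was 0.11 there, so their median relative to all genes was -0.13.

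**Figure D5:**
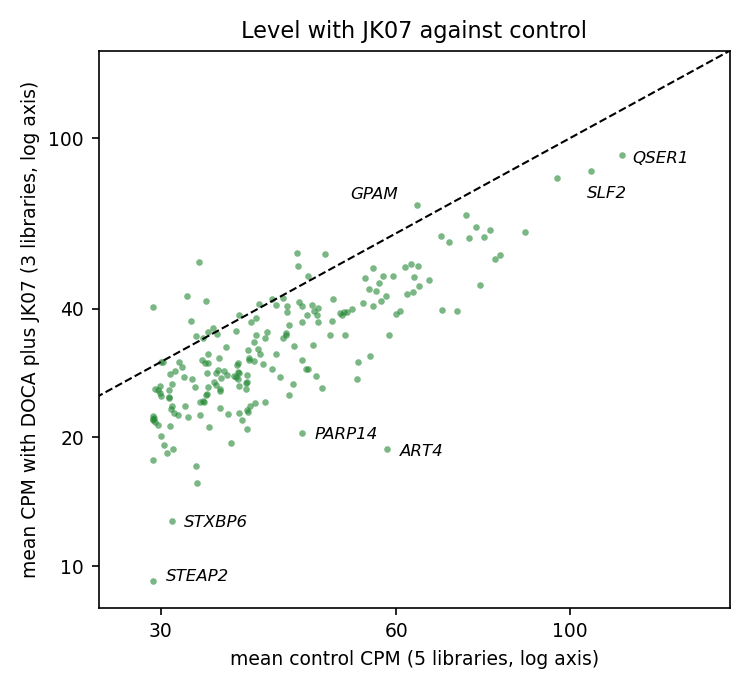
Mean CPM with DOCA plus JK07 (y axis, 3 libraries, log scale) against mean control CPM (x axis, 5 libraries, log scale) for the 200 genes, with the dashed line at equality. Of the points, 183 lie under the line and 17 above it, with STEAP2, STXBP6 and ART4 farthest below.

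The lowest changes with JK07 were in a few membrane genes. STEAP2, a metalloreductase, was at 22.0, 49.7, 17.3, 43.6 and 14.2 CPM in controls and 8.22, 6.63 and 12.9 CPM with JK07, a log2 change of -1.55 ± 0.54 (SE). ART4, an ADP-ribosyltransferase on the cell surface, was at 62.0, 36.1, 42.6, 94.6 and 56.5 CPM and 35.4, 5.74 and 15.1 CPM, or -1.46 ± 0.59. STXBP6 (ENSSSCG00000001977; chromosome 7, 74294948 to 74552433, plus strand), a SNARE-binding protein that regulates membrane fusion, was at 35.5, 30.5, 29.1, 26.5 and 33.4 CPM and 10.8, 14.8 and 12.7 CPM, the narrowest of the 3 within groups.

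Between the groups, the change of STXBP6 was -1.15 ± 0.22 (SE), with an unadjusted p of 0.00074 in edgeR, an adjusted p of 0.977, and an adjusted p of 1.18e-07 in DESeq2. RECK, a membrane inhibitor of matrix metalloproteinases, was at 41.4, 37.4, 32.7, 41.3 and 40.7 CPM in controls and 24.2, 20.1 and 18.5 CPM with JK07. Its change was -0.74 ± 0.20 (SE) in edgeR and its adjusted p in DESeq2 was 0.0112. The deposited coverage of STXBP6 was 0.378 in controls, under 1 although the gene was listed, so its scaled coverage is uncertain. FOXP2, FAM172A and KCNAB1 were the other genes with a mean control coverage under 1. Other genes of low unadjusted p with JK07 were DNAJC10 (-0.70 ± 0.22), KLHL20 (-0.62 ± 0.21), SCAMP1 (-0.67 ± 0.23), SYNJ2BP (-0.62 ± 0.22), SPPL2A (-0.74 ± 0.26) and TMX3 (-0.79 ± 0.29), given as log2 change ± SE.

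By role, the interferon and innate immune genes had the lowest median change with JK07, -0.65, with 6 of 6 below 0 on the count scale and 5 of 6 on the TPM scale. None of them lay wholly below control. The chaperones DNAJC10, DNAJC9, TMX3 and DNAJC16 followed at a median of -0.49, and the first 3 lay wholly below. Over the 200 genes 21.5% did, and over named genes 8.11%. Cell surface genes were at -0.40, nuclear pore genes at -0.29 with 5 of 5 below 0, and mitochondrial genes at -0.30 with 21 of 23. Genome maintenance stood at -0.22 and chromatin at -0.21. On the TPM scale with a pseudocount of 1 these last 2 medians were 0.01 and 0.00, while all genes stood at 0.11. Relative to all genes they were -0.10 and -0.11 there, with 15 of 18 and 25 of 30 genes below the all-gene median. The other roles of this paragraph were below 0 there too.

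Genes with a log2 change above 0 included MYH1 at 0.60 ± 0.37 (SE), SLC36A1 at 0.55, DZIP3 at 0.41 and AREL1 at 0.40. SLC36A1, a lysosomal amino acid transporter, was at 16.8, 23.6, 33.1, 47.1 and 41.3 CPM in controls and 46.9, 43.5 and 37.8 CPM with JK07. None of these 4 genes had an unadjusted p under 0.05 in the edgeR test. Each was above the all-gene median under TMM, DESeq2 size factors, upper quartile and TPM scaling.

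Spread among controls differed between the genes. The coefficient of variation over the 5 controls was 19.3% at the median (5.18% to 80.0%), against 19.4% in the 4866 genes above 0 in both DOCA libraries. Library 2 was the highest control for 13 of the 20 genes with the highest coefficient of variation, among them CACNA1D, ITGB6, FOXP2, ENPEP, TMEM144, STEAP2 and STOX1, and library 5 the lowest for 9. Over all 200 genes library 2 was highest for 67 and library 3 for 18. With JK07, library 8 was highest for 80 genes, library 9 for 56 and library 10 for 64.

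The other genes among the 25 of highest control CPM were HYCC2, NECTIN3, OGFRL1 and PGAP1. HYCC2, of the complex that holds a lipid kinase at the plasma membrane, was at 116, 113, 81.2, 116 and 54.7 CPM in controls and 79.2, 83.2 and 79.7 CPM with JK07. NECTIN3, a cell adhesion molecule, was at 89.9, 103, 70.3, 101 and 73.9 CPM and 69.9, 62.4 and 48.6 CPM, with no overlap between the groups. OGFRL1 was at 81.5 ± 16.1 CPM in controls and PGAP1, which remodels GPI anchors, at 74.2 ± 12.4 CPM (SD, n = 5 each).

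Position gave a few shared neighbourhoods. Of the 200 genes, 70 were overlapped by another annotated gene, 60 of them by one on the opposite strand and 55 by a named one. Whether the authors counted by strand is not given in the sources used here, and reads of such pairs cannot be told apart. There were 5 pairs of the 200 genes next to each other: CTDSPL2 and GOLM2, LRRC9 and PCNX4, IFT80 and SMC4, CYP20A1 and ABI2, and YIPF4 and SLC30A6. LRRC9 was at 27.8, 71.4, 40.7, 31.4 and 17.8 CPM in controls 1 to 5 and its neighbour PCNX4 at 55.2, 82.3, 51.0, 60.6 and 38.0 CPM. ABI2, an actin regulator of the WAVE complex, was at 75.7, 58.1, 56.5, 64.8 and 60.1 CPM in controls and 44.1, 50.8 and 36.4 CPM with JK07, and CYP20A1 at 35.8, 36.7, 39.1, 35.9 and 40.5 CPM and 30.5, 24.0 and 27.8 CPM, neither with overlap between the groups.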

How the data were processed

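The authors deposited, per the file headers, a gene abundance table per library with coverage (a signal per base), FPKM and TPM, and 1 table of whole-number estimated counts without gene names. The submitters' processing notes name Sscrofa11.1, StringTie, SAMtools and edgeR. The aligner and versions are not given in the sources used here. Counts were joined by sorted identifier: 99.998% of values were 0 in both tables or in neither, against 62.6% with identifiers moved by 1 line. Rounding moved no count, and FPKM entered no test.

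The 10 libraries (5 control, 2 DOCA, 3 DOCA plus JK07) entered 1 edgeR 4.0.16 quasi-likelihood model in R 4.3.3, with TMM scaling and filterByExpr, over 17251 genes, adjusted by Benjamini-Hochberg at a threshold of 0.05. It was tested on simulated data with 8-fold changes in randomly drawn genes, of which it recovered 99.5%. The biological coefficient of variation, the fitted spread between libraries of a group, was 0.873 here and set lower in the simulation. Smaller changes were not simulated, so the power to call them is not known. All 200 genes passed the filter. What the 2 DOCA libraries add to the estimate of spread was not measured. A fit of the control and DOCA plus JK07 libraries only called 0 of 16282 genes between those groups. Errors of CPM are SD. DESeq2 1.42.0, limma 3.58.1 on log2 TPM with pseudocounts of 1 and 0.1, other scalings, other choices of genes and leaving out each library were alternatives. Scaled coverage is mean control CPM times the chromosome total of a DOCA library, divided by counts per unit of coverage. The genes, families and functional groups were chosen with earlier results of these data known, and the roles and partner genes after values were seen. Genes were named by rule: the 25 with the highest mean control CPM, up to 6 of each family, the extremes of change with JK07, of span, of control coverage and of control variation, and those at the edge of the 200. Other genes named were chosen after their values were seen. Some genes that the rule takes are not reported here.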

Additional observations from a re-analysis of the deposited data

Results flagged for a closer look

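In 90 sets of 5 control values, 1 for each gene picked by rule, the gap between the highest or lowest library and its nearest neighbour was divided by the range, and a share above the Dixon critical value marked a library that stood apart. Chance marks about 1 in 20 sets, and 5 of 90 were marked. Some of these genes were picked for the highest or lowest variation of the same control values, so that rate need not hold. HPS5 was at 80.3 CPM in control library 4 and 71.4 to 72.9 CPM in the other 4 controls. NEDD4 was at 36.1 CPM in library 2 and 74.8 to 87.5 CPM in the others. TBC1D8B, a regulator of RAB GTPases, was at 88.1 CPM in library 2 and 49.9 to 59.1 CPM in the others. FOXP2, a forkhead transcription factor, was at 81.1 CPM in library 2 and 21.3 to 30.2 CPM in the others. SYTL2, a RAB27 effector in vesicle transport, was at 46.2 CPM in library 4 and 27.6 to 30.5 CPM in the others.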

How the results depend on the processing

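The median log2 change of the 200 genes from control to DOCA plus JK07, -0.25, ranged from -0.32 (without library 8) to -0.16 (without control library 2). It was -0.19 over all genes at 0 in both DOCA libraries, -0.15 for genes ranked by their level with JK07 (added after seeing the data), and -0.019 and -0.026 on the TPM scale with pseudocounts of 1 and 0.1. The cause was not tested. The count of called genes was 0 in edgeR under each scaling, filter and left-out library, and 2 lower with DESeq2, which called 0.383% of 16963 genes lower. Genes wholly below control numbered 43 (21.5%, against 8.11% of named genes), from 46 to 60 with a library left out (23% to 30%, against 9.41% to 15.8%), 137 of 1105 over all genes at 0 in both DOCA libraries and 28 when ranked by JK07. Median scaled coverage in libraries 6 and 7 was 2.15 and 1.02 from the level with JK07, 2.10 and 1.00 from the lowest control, and 3.89 and 1.85 from TPM. The 1105 genes became 1750 with coverage under 1 in place of a count of 0, 1827 with 0 required in library 6 only and 1911 in library 7 only. No paired analysis was possible because each library has its own number from 1 to 10 and none is shared between groups. At 3238505 counts on chromosomes in library 7, 51 of the 200 genes would lie under a coverage of 1 at their control level. With coverage taken from TPM, 7 genes would.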

Other observations

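The mitochondrial list, which holds 3 of the 200 genes, had a median log2 change below 0 with JK07 on the count scale. Of its 249 genes above 0 in the 8 control and JK07 libraries, 175 had a log2 change from control below 0, with a median of -0.18, and 18.1% lay wholly below control, against 8.11% of named genes. On the TPM scale with a pseudocount of 1 that median was 0.02, while all genes stood at 0.11. Ion channel genes had a median of 0.16, with 29 of 79 below 0, against 52.7% of named genes tested. Of the 79, 12 (15.2%) were at 0 in both DOCA libraries, against 10.9% of named genes. Their median scaled coverages in libraries 6 and 7 were 2.83 and 1.35, against 4.21 and 2.01 over named genes. Of the cardiomyocyte markers, 3 of 10 were below 0 and their median was 0.40. Library 10, at 53790 CPM summed, stood above the other JK07 libraries at 30970 and 34438 CPM.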
